A study of Mus musculus with 10 samples.

Results

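The 10 immediate early genes Fos, Fosb, Jun, Junb, Egr1, Egr2, Egr3, Ier2, Ier3 and Nr4a1 were examined in spleens of DUSP6 KO and WT mice with KRN serum-induced arthritis (KSIA). They were chosen by gene symbol, with earlier results of these data known, and all 10 were found among the 54532 genes of the expression table. Spleens were taken on day 9, the peak of arthritis, from 5 DUSP6 KO mice, which carry the germline Dusp6tm1Jmol knockout allele (named a knockdown in part of the labels), and from 5 WT mice (C57BL/6J). All 10 mice had received 100 µL of pooled arthritogenic serum intraperitoneally on days 0 and 2, so there was no spleen without arthritis, and the mice of the study were 8 to 12 weeks old. Both strains were purchased, and whether the mice were littermates is not given in the sources used here. RNA of each whole spleen was sequenced as a separate library, and each mouse is named here by its number in the labels. Expression is given as FPKM, the fragments per length of the gene scaled to the size of the library, which allows levels of different genes to be compared.

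Immediate early genes are transcribed within minutes of a signal, without the need for new protein. Extracellular signal-regulated kinase (ERK) is a main route to them: it and its downstream kinases phosphorylate ternary complex factors such as ELK1, which sit with serum response factor (SRF) on CArG boxes, and activate CREB, which binds cyclic AMP response elements built around TGACG. DUSP6 is a cytoplasmic phosphatase that removes the activating phosphates of ERK. In the spleen these genes respond to antigen receptor signals in B and T cells, and to cytokines, growth factors and tissue handling in many cell types.

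Promoter sequences show how the letters that these factors recognise are spread among the genes. RefSeq start sites (GRCm38.p6) were matched for 7 of the 10 genes: Fos, Fosb, Jun, Junb, Egr2 (with 5 start sites), Ier3 and Nr4a1. The 250 bases before each start site were searched on both strands for TGACG (or its complement CGTCA), for the CArG box by its name, and for TATAAA (or TTTATA). At least 1 TGACG was found for 5 of the 7 genes (Fos, Fosb, Junb, Egr2 and Nr4a1), against 17.8% of all 32851 such windows. The shares are of single windows, while a gene was counted if any of its windows held a match, and Egr2 had 5. A CArG box was found only for Egr2 among the 7, and is held by 1.47% of all windows, while TATAAA was found only for Fos and is held by 12.4%. Sequence farther than 250 bases from a start site was not searched, nor were Egr1, Egr3 and Ier2. A gene without a match here may therefore hold a CArG box elsewhere. The windows of Fos, Nr4a1 and Egr2 are shown because they hold the most matches. Capitals mark the matches, and all 3 lie on the plus strand, at chr12:85473640-85473889, chr15:101266596-101266845 and chr10:67537619-67537868. The windows of Nr4a1 and Egr2 lie within introns of longer annotated transcripts of the same genes.
Fos: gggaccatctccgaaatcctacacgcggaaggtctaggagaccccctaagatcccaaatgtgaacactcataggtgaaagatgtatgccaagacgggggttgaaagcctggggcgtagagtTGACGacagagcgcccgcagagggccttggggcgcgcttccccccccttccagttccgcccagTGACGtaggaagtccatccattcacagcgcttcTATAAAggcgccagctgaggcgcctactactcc
Nr4a1: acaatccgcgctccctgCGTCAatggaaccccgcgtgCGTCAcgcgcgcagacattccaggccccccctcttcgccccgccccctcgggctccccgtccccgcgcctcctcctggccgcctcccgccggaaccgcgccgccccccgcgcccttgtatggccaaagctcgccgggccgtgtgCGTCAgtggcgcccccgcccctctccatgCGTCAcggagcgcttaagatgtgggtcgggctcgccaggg
Egr2: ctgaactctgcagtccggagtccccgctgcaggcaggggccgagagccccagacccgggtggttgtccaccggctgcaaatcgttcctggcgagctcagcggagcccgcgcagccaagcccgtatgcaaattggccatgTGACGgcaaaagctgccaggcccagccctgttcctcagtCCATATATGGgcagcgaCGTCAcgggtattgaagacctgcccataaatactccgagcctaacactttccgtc
The Fos window holds 2 TGACG, that of Nr4a1 holds 4 in the complement, and that of Egr2 holds the CArG box between 2 matches to TGACG. A match of letters is a description and not a site of binding.

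The libraries held 14990474 to 19822673 reads assigned to genes. Dusp6 itself was at 0.308 to 0.624 FPKM in the DUSP6 KO spleens and at 16.6 to 24.0 FPKM in the WT spleens, and by limma its log2 fold change was −5.19 with an adjusted p of 1.33e-07. Although the labels speak of male and female mice, every library held Ddx3y of the Y chromosome (14.4 FPKM or more) and next to no Xist (0.0206 FPKM or less). The defining markers of B cells, T cells, macrophages and erythroid cells were detected in all 10 libraries. The WT spleens of mice 65 and 67 also held reads of 6 exocrine pancreas genes, at 0.0195% and 1.51% of their reads, and each difference between the groups was therefore also computed without these 2 libraries.

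Levels differed widely among the 10 genes. Junb averaged 43.5 FPKM over the 10 spleens and Ier2 39.1, followed by Nr4a1 at 13.8, Egr3 at 10.6, Jun at 9.21, Egr1 at 7.04, Ier3 at 4.22, Fos at 3.27, Egr2 at 2.26 and Fosb at 0.300. The breaks between Ier2 and Nr4a1 and between Egr2 and Fosb were complete, with no overlap between the ranges over the 10 spleens. All other neighbours in this order had overlapping ranges, although Jun was above Egr1 in 10 of 10 spleens. Junb exceeded Ier2 in 7 of 10 spleens, and Fos exceeded Egr2 in 4 of the 5 DUSP6 KO spleens and in 1 of the 5 WT spleens.

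Of the 10 genes, none passed an adjusted p of 0.05 in the comparison of DUSP6 KO with WT spleens. Over all genes tested, 15 of 21296 did (0.0704%). The study tested counts of the same spleens with DESeq2 and called many more genes, among them Spry1, Spry4, Hspb1 and Marco. A gene not called here is therefore not shown to be unchanged. At an unadjusted limma p under 0.05, Fos alone of the 10 was called, against 5.66% of all genes tested (1205 of 21296). The log2 fold change was above 0 for 5 of the 10 genes and below 0 for the other 5, and the median was 0.01, against −0.0046 over all genes tested. In bulk tissue, fewer cells of a type and less RNA per cell cannot be told apart, and this holds for every level below.

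**Figure D1:**
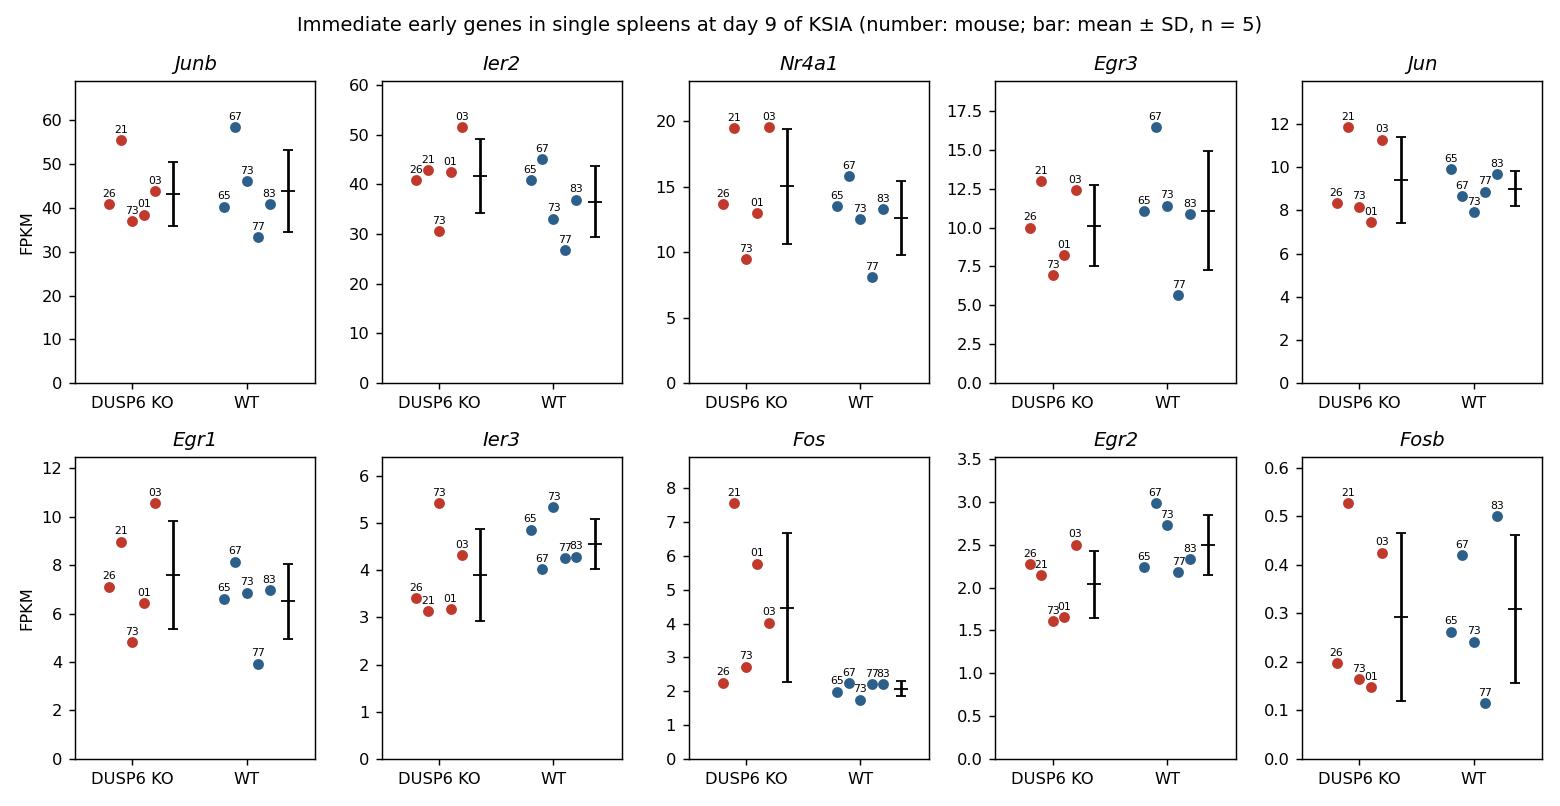
FPKM (vertical axes, each from 0) of the 10 immediate early genes in 5 DUSP6 KO (red) and 5 WT (blue) spleens, ordered by mean level; numbers are mice and black bars are the mean ± SD (n = 5). Only the Fos panel shows all DUSP6 KO spleens above all WT spleens, from 2.26 to 7.57 against 1.75 to 2.25 FPKM, and mice 73 (DUSP6 KO) and 77 (WT) are low together in the panels of Junb, Ier2, Nr4a1, Egr3 and Egr1.

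Fos encodes the subunit that pairs with JUN proteins to form the transcription factor AP-1. It lies on the plus strand of chromosome 12 (85473890 to 85477273, GRCm38). In DUSP6 KO spleens Fos was at 2.26 FPKM in mouse 26, 7.57 in mouse 21, 2.73 in mouse 73, 5.77 in mouse 01 and 4.02 in mouse 03. In WT spleens it was at 1.99 in mouse 65, 2.25 in mouse 67, 1.75 in mouse 73, 2.20 in mouse 77 and 2.21 in mouse 83. All DUSP6 KO values thus lay above all WT values, which was the case, in the direction of a higher level in DUSP6 KO, for 0.549% of all genes tested. The means were 4.47 ± 2.20 and 2.08 ± 0.21 FPKM (SD, n = 5 each), and the log2 fold change was 0.94 with a 95% interval from 0.29 to 1.58. The limma p was 0.00872 before adjustment and 0.621 after it. The two-sided exact permutation test gave p = 0.00794, the smallest that 5 against 5 spleens allow. In either direction, 1.11% of all genes tested had groups without overlap.

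The separation of the groups in Fos was narrow at its edge. Mouse 26 had 99 Fos reads, with a 95% Poisson interval of 1.83 to 2.75 FPKM, and WT mouse 67 had 101 reads and an interval of 1.83 to 2.73 FPKM. These intervals cover counting error only. The intervals of 3 DUSP6 KO spleens (mice 21, 01 and 03) lay above those of all WT spleens, with lower bounds of 6.79, 5.13 and 3.42 FPKM. With the libraries rescaled to their read totals, or to their reads outside genes of haemoglobin, mitochondria, immunoglobulins and T cell receptors, 4 of 5 DUSP6 KO spleens were above the highest WT spleen. Under quantile normalization and median centring all 5 were, with the lowest DUSP6 KO spleen at 1.31 on the log2 scale in both and the highest WT spleen at 1.20. The spread was also unequal, with a coefficient of variation of 49.3% in DUSP6 KO and 10.1% in WT spleens.

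Levels of Fos in the DUSP6 KO spleens were set beside markers of stromal and endothelial cells. The mean log2 level of 10 rows of stromal markers (such as Pdgfrb and Col1a1) was 4.12 in mouse 21, 3.78 in mouse 03, 3.44 in mouse 01, 3.13 in mouse 26 and 2.75 in mouse 73, while the WT spleens ranged from 3.28 to 3.64. Mouse 21 was thus highest of all 10 spleens in Fos and in this mean, and it was highest of the 10 in 6 of the 10 stromal rows and in 5 of the 7 endothelial markers. DUSP6 KO mouse 73 was lowest of all 10 in this mean, while its Fos (2.73 FPKM) was above every WT spleen. Mouse 01, next to mouse 21 in Fos (5.77 FPKM), was within the WT range of this mean. The mean of the 7 endothelial markers was 3.54 in mouse 21, 3.25 in mouse 03, 3.20 in mouse 01, 3.12 in mouse 73 and 2.99 in mouse 26. In the WT spleens the endothelial mean ranged from 3.01 to 3.28. Over the 10 spleens, Fos had a Pearson r of 0.759 with the endothelial mean and of 0.559 with the stromal mean. With the group means removed, these were 0.776 and 0.789. The summed stromal level was 212 to 486 FPKM in DUSP6 KO and 259 to 447 FPKM in WT spleens, so the groups overlapped. Ccl21a was listed at 0 in at least 1 library. Between the groups, 1 of 10 stromal rows was higher and none lower at an unadjusted limma p under 0.05 (2.62% and 3.03% of all genes tested). Without mouse 21, the log2 fold change of Fos was 0.72 (limma adjusted p = 0.589). The part of stromal or endothelial cells in the Fos result was not tested.

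Fosb, a close relative of FOS that also pairs with JUN proteins, was the least abundant of the 10 genes (chromosome 7, minus strand). Its levels were 0.197, 0.527, 0.164, 0.148 and 0.425 FPKM in DUSP6 KO mice 26, 21, 73, 01 and 03, and 0.262, 0.420, 0.241, 0.116 and 0.501 FPKM in WT mice 65, 67, 73, 77 and 83. Only 12 to 64 reads per library stood behind these values. The groups overlapped throughout, and the log2 fold change was −0.08 with a 95% interval from −0.92 to 0.77, which includes differences in either direction. The direction turned without DUSP6 KO mouse 73 or 01, and without WT mouse 67 or 83.

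Jun, the partner of FOS in AP-1 (chromosome 4, minus strand), was at 8.32, 11.9, 8.18, 7.45 and 11.3 FPKM in DUSP6 KO mice 26, 21, 73, 01 and 03. The WT mice 65, 67, 73, 77 and 83 were at 9.92, 8.67, 7.91, 8.86 and 9.66 FPKM. The DUSP6 KO values fell on either side of the WT range, with mice 21 and 03 above it and mouse 01 below it. The log2 fold change was 0.04 with a 95% interval from −0.26 to 0.35. The direction turned without DUSP6 KO mouse 21 or 03, or without WT mouse 73.

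Junb, an AP-1 subunit that can restrain JUN (chromosome 8, minus strand), was at 40.9, 55.4, 36.9, 38.5 and 43.9 FPKM in DUSP6 KO mice 26, 21, 73, 01 and 03. In WT mice 65, 67, 73, 77 and 83 it was at 40.3, 58.4, 46.2, 33.3 and 40.9 FPKM. All DUSP6 KO values lay inside the WT range. The means of 43.1 ± 7.4 and 43.8 ± 9.4 FPKM (SD, n = 5 each) gave a log2 fold change of −0.01 with a 95% interval from −0.35 to 0.33, and the sign turned under quantile normalization and median centring. Junb overlaps Prdx2 and Jun overlaps the antisense gene Junos in the annotation. Since the use of strand in counting is not stated, the levels of Jun and Junb are uncertain to that extent, and no overlapping gene is annotated for the other 8 genes.

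The 3 EGR genes encode zinc finger transcription factors that bind GC-rich sites. Egr1 (chromosome 18) was at 7.11, 8.97, 4.82, 6.42 and 10.6 FPKM in DUSP6 KO mice 26, 21, 73, 01 and 03, and at 6.61, 8.14, 6.87, 3.93 and 6.98 FPKM in WT mice 65, 67, 73, 77 and 83. Mice 21 and 03 were above the WT range, and the log2 fold change was 0.21 with a 95% interval from −0.31 to 0.72. Egr3 (chromosome 14), which acts downstream of antigen receptors in lymphocytes, was at 9.998, 13.0, 6.96, 8.21 and 12.4 FPKM in the same order of DUSP6 KO mice, and at 11.1, 16.5, 11.4, 5.64 and 10.9 FPKM in the WT mice. Here every DUSP6 KO value lay within the WT range, and the log2 fold change was −0.09 with a 95% interval from −0.68 to 0.50. The direction of Egr3 turned without DUSP6 KO mouse 73 or WT mouse 67.

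Egr2 (chromosome 10), which together with EGR3 limits T cell activation, had a mean below that of WT in the DUSP6 KO spleens. It was at 2.27, 2.15, 1.61, 1.66 and 2.50 FPKM in DUSP6 KO mice 26, 21, 73, 01 and 03, and at 2.24, 2.99, 2.73, 2.18 and 2.33 FPKM in WT mice 65, 67, 73, 77 and 83. Of the DUSP6 KO spleens, 3 were below the lowest WT spleen and the other 2 were within the WT range. The log2 fold change was −0.29 with a 95% interval from −0.63 to 0.06 (limma adjusted p = 0.944). The two-sided exact permutation test gave p = 0.111.

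Nr4a1 (chromosome 15) encodes the nuclear receptor NUR77, which is widely used as a reporter of antigen receptor signals. It was at 13.6, 19.5, 9.47, 13.0 and 19.5 FPKM in DUSP6 KO mice 26, 21, 73, 01 and 03. The WT mice 65, 67, 73, 77 and 83 were at 13.5, 15.8, 12.5, 8.09 and 13.3 FPKM. As for Egr1, mice 21 and 03 exceeded every WT spleen and the other 3 did not. The log2 fold change was 0.23 with a 95% interval from −0.27 to 0.73.

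Ier2 and Ier3 are short genes that share a name but encode unrelated proteins. Ier2 (chromosome 8), a nuclear protein, was at 40.8, 42.9, 30.6, 42.4 and 51.5 FPKM in DUSP6 KO mice 26, 21, 73, 01 and 03, and at 40.8, 45.05, 33.1, 26.7 and 36.9 FPKM in WT mice 65, 67, 73, 77 and 83. Only mouse 03 exceeded the WT range, and the log2 fold change was 0.19 with a 95% interval from −0.17 to 0.55. Ier3 (chromosome 17), a protein that affects cell survival and prolongs ERK activity, was at 3.41, 3.14, 5.43, 3.18 and 4.32 FPKM in the DUSP6 KO mice in the same order, and at 4.86, 4.03, 5.33, 4.25 and 4.29 FPKM in the WT mice. Mice 26, 21 and 01 were below the lowest WT spleen and mouse 73 was above the highest. The log2 fold change of Ier3 was −0.24 with a 95% interval from −0.60 to 0.11, and 69 to 104 reads per library stood behind it.

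**Figure D2:**
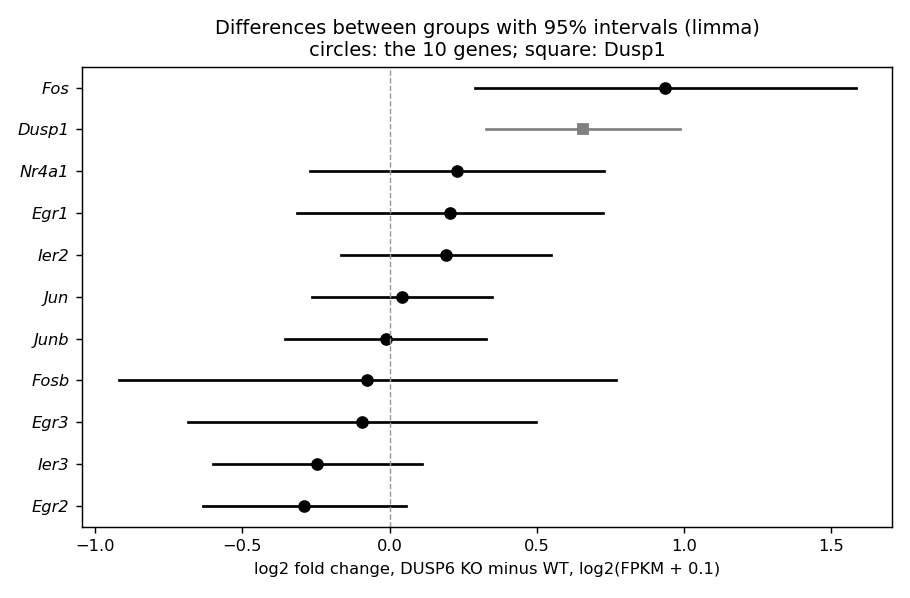
Log2 fold change (horizontal axis, DUSP6 KO minus WT on the log2(FPKM + 0.1) scale) of the 10 immediate early genes (circles) and of Dusp1 (square), with 95% intervals from limma as lines (5 spleens per group). The intervals of Fos (0.29 to 1.58) and Dusp1 (0.33 to 0.99) lie above 0, and those of the other 9 immediate early genes include it.

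Over the 10 spleens, 6 of the genes (Fosb, Junb, Egr1, Egr3, Ier2 and Nr4a1) held all the correlated pairs. Among Fosb, Jun, Junb, Egr1, Egr2, Egr3, Ier2 and Nr4a1, all 28 pairs had a positive Pearson r of log2(FPKM + 0.1), from 0.255 to 0.982. Of all 45 pairs of the 10 genes, 13 had an adjusted permutation p of 0.05 or less, and these were 13 of the 15 pairs of the 6 genes. Jun and Egr2 had no called pair, although their r with the 6 genes was positive. With the group means removed and values permuted within groups, 13 of 45 pairs were called, 11 of them among the 6 genes and 2 with Egr2, and by Spearman's rho 9 of 45.

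Egr1 and Nr4a1 were the closest pair. Their Pearson r was 0.982 (two-sided permutation p = 3e-05, adjusted p = 0.00135) and Spearman's rho 0.939 (permutation p = 0.00022, adjusted p = 0.0063). The r was 0.982 with the group means removed, and 0.969 without WT mouse 77 and DUSP6 KO mouse 03, the 2 spleens farthest from the median of Egr1. Ier2 followed both of them, with an r of 0.917 to Nr4a1 (permutation p = 0.0001, adjusted p = 0.00225; rho = 0.903, permutation p = 0.00087, adjusted p = 0.013) and 0.911 to Egr1 (permutation p = 0.00041, adjusted p = 0.00596; rho = 0.794, permutation p = 0.00906, adjusted p = 0.0453). Without the 2 spleens farthest from the median on the x axis, these became 0.756 and 0.746. The 3 genes lie on chromosomes 18, 15 and 8.

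As measured, Egr3 was closest to Junb, with an r of 0.902 (permutation p = 0.00053, adjusted p = 0.00596) and a rho of 0.939 (permutation p = 0.00028, adjusted p = 0.0063). This r was 0.929 without WT mouse 67 and DUSP6 KO mouse 21. With the group means removed, Egr3 was closer to Egr1 (r = 0.945) and Nr4a1 (0.941) than to Junb (0.904). Egr3 also had an r of 0.876 with Egr1 (permutation p = 0.00116, adjusted p = 0.0104; rho = 0.842, permutation p = 0.00363, adjusted p = 0.0327) and of 0.857 with Nr4a1 (permutation p = 0.00221, adjusted p = 0.0142; rho = 0.794, permutation p = 0.00863, adjusted p = 0.0453). The relation of Egr3 to Nr4a1 rested on WT mouse 77 and DUSP6 KO mouse 73, without which r was 0.566 (exact permutation p = 0.157). Egr2, the third of the family, had an r of 0.482 with Egr1 over all spleens (permutation p = 0.152, adjusted p = 0.285) and of 0.800 once the group means were removed (exact permutation test within groups, adjusted p = 0.0331).

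Fos and Ier3, like Jun and Egr2, had no called pair: none of the 9 pairs with Fos and none of the 9 pairs with Ier3 had an adjusted p of 0.05 or less. The r of Fos with the other 9 genes ran from −0.685 to 0.497, and 7 of the 9 values were positive. With Jun, its partner in AP-1, Fos had an r of 0.382 (permutation p = 0.276, adjusted p = 0.376; rho = 0.152, permutation p = 0.682, adjusted p = 0.777). The most negative pair of all was Fos and Ier3, at −0.685 (permutation p = 0.0282, adjusted p = 0.0793; rho = −0.564, permutation p = 0.0966, adjusted p = 0.217). Without DUSP6 KO mice 21 and 01, the 2 spleens farthest from the median of Fos, this r was −0.125 (exact permutation p = 0.761). Ier3 had a negative r with 8 of the other 9 genes.

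**Figure D3:**
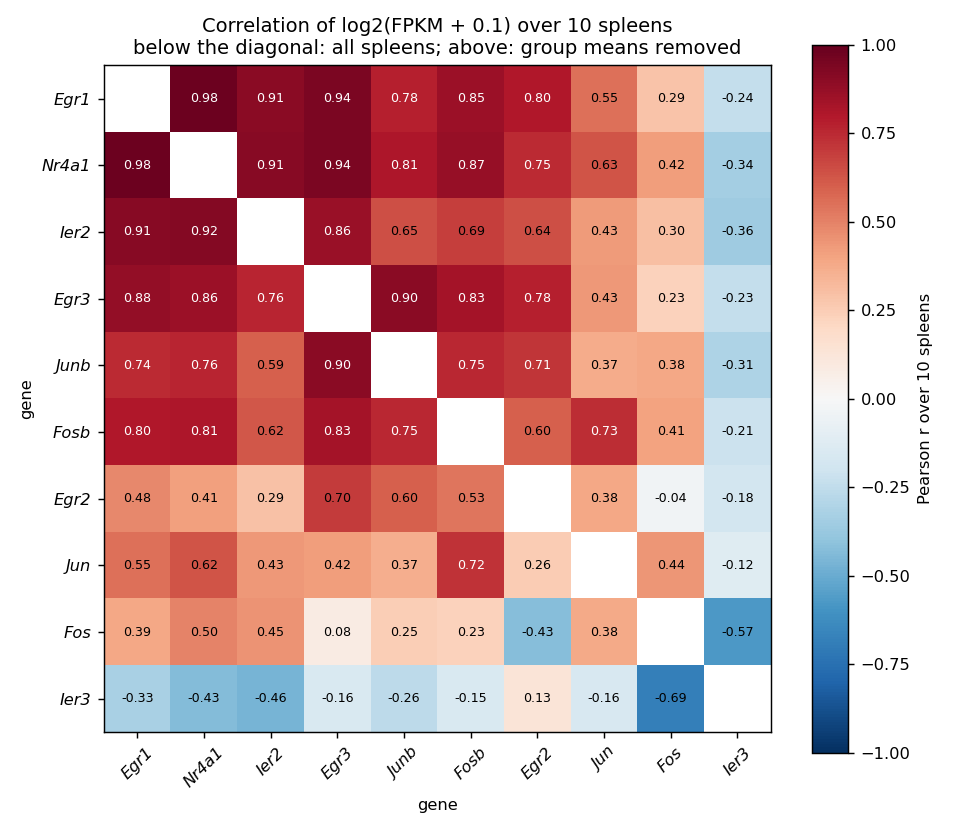
Pearson r (colour and printed value, from −1 in blue to 1 in red) of log2(FPKM + 0.1) between each pair of the 10 genes over 10 spleens, below the diagonal as measured and above it with the group means removed. The block of Egr1, Nr4a1, Ier2, Egr3, Junb and Fosb is red throughout. Below the diagonal, the cells of Fos run from −0.685 (with Ier3) to 0.497, and Ier3 is blue against all but Egr2.

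The shared pattern was carried to a large extent by a few spleens. DUSP6 KO mouse 73 and WT mouse 77 were the 2 lowest of all 10 spleens in 5 of the 10 genes (Junb, Egr1, Egr3, Ier2 and Nr4a1), and mouse 77 was the lowest in 6 of the 10. At the other end, the highest spleen was DUSP6 KO mouse 21 for 3 genes, DUSP6 KO mouse 03 for 3 and WT mouse 67 for 3. Without WT mouse 77, 3 pairs had an adjusted permutation p of 0.05 or less, and 7 did without DUSP6 KO mouse 73 or without DUSP6 KO mouse 21. Without mice 73 (DUSP6 KO) and 77 (WT) together, 2 of 45 pairs were called: Egr1 with Nr4a1 (r = 0.949, exact permutation test, adjusted p = 0.0385) and Junb with Egr3 (r = 0.877, exact permutation test, adjusted p = 0.0335).

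The same 2 spleens stood apart in the markers of lymphocytes. The mean log2 level of 6 B cell markers (Cd79a, Cd79b, Ms4a1, Pax5, Cr2 and Fcer2a) was 5.93 in DUSP6 KO mouse 73 and 6.15 in WT mouse 77, and 6.55 to 7.26 in the other 8 spleens. These were the 2 lowest spleens in 6 of 6 B cell markers and in 6 of 7 T cell markers. The mean of the 7 erythroid markers was highest in the same 2 spleens, at 10.6 and 9.88, against 7.64 to 9.59 in the others. Each was also highest of its group in neutrophil markers (6.59 in mouse 73 and 7.65 in mouse 77) and in megakaryocyte and platelet markers (3.75 and 4.27). In macrophage and monocyte markers, mouse 73 was highest of the DUSP6 KO spleens and mouse 77 lowest of the WT spleens. Summed B cell marker levels were 587 to 1140 FPKM in DUSP6 KO and 656 to 1483 FPKM in WT spleens, and no B or T cell marker was at 0 in any library. None of the 6 B cell and 7 T cell markers had an unadjusted limma p under 0.05 between the groups, against 5.66% of all genes tested. Over all 10 spleens, the B cell marker mean had a Pearson r of 0.937 with Egr3, 0.825 with Egr1 and 0.825 with Nr4a1. It was 0.806 with Junb, 0.793 with Fosb and 0.771 with Ier2, but 0.093 with Fos and −0.335 with Ier3. With the same 6 genes, the erythroid mean had an r of −0.67 (Ier2) to −0.88 (Fosb). That of the neutrophil mean was −0.34 (Fosb) to −0.89 (Ier2). The part of lymphocytes or of any other cell type in the correlations was not tested.

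**Figure D4:**
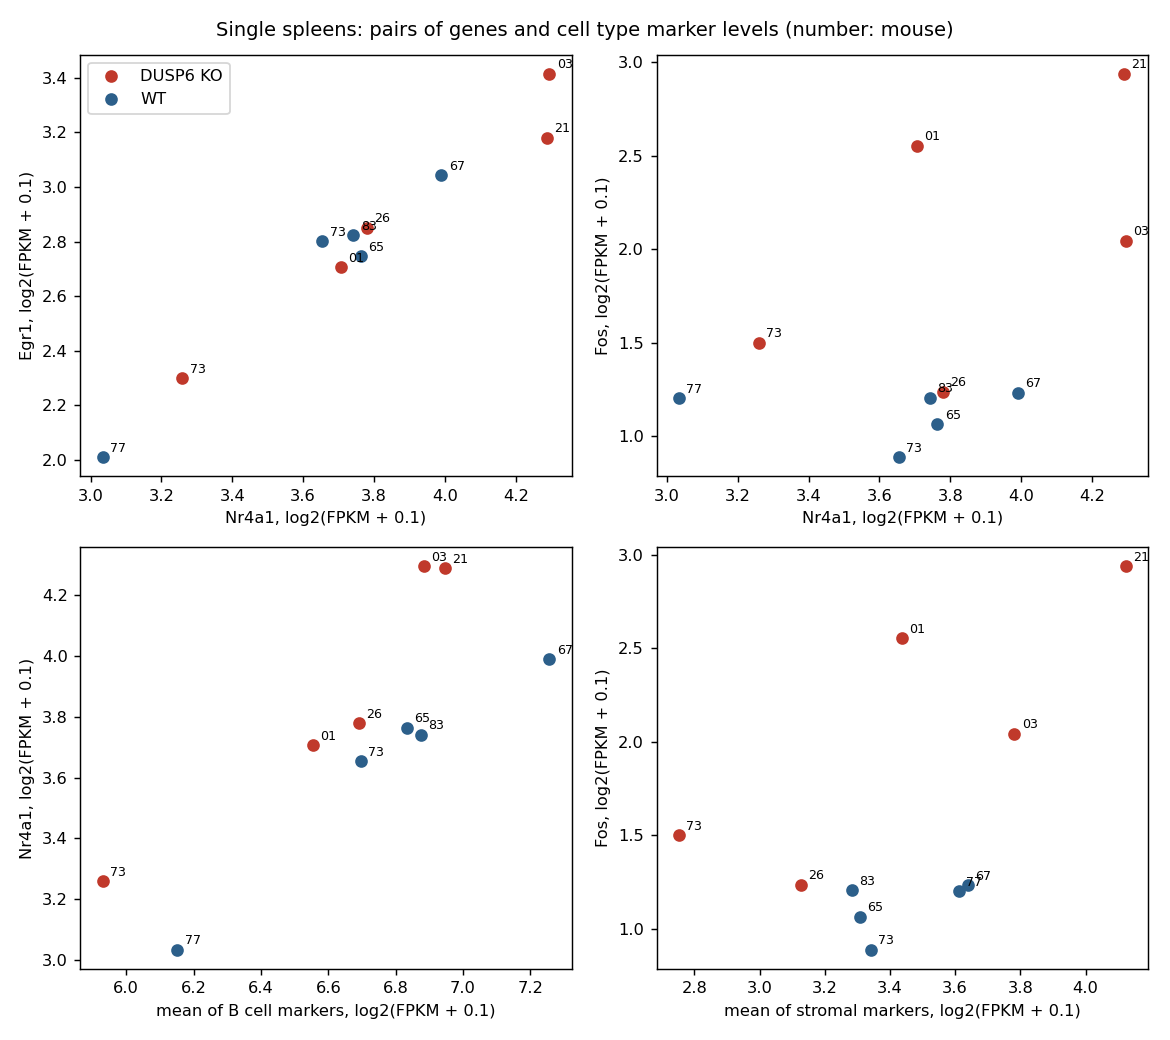
Each point is 1 spleen (red, DUSP6 KO; blue, WT; number, mouse), with log2(FPKM + 0.1) on all axes: Egr1 against Nr4a1, Fos against Nr4a1, Nr4a1 against the mean of 6 B cell markers, and Fos against the mean of stromal markers. Egr1 and Nr4a1 lie along a line (r = 0.982), while Fos is at 1.23 or below in all WT spleens at every level of Nr4a1, and DUSP6 KO mouse 73 and WT mouse 77 are lowest in Nr4a1 and in B cell markers.

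Among the 13413 other genes whose mean reached 1 FPKM, the 8 whose pattern was most like the 10 genes, by the mean Pearson r over the 10 spleens, were Prkch (0.654), Sept1 (0.653), Sidt2 (0.653), Pip5k1c (0.651), Thap3 (0.650), Arhgef2 (0.650), Npepl1 (0.649) and Dennd3 (0.648). Prkch encodes a protein kinase C and Sept1 a septin of the cytoskeleton. All 8 had a negative r with Ier3, from −0.175 for Pip5k1c to −0.432 for Npepl1. Their highest r was with Egr1, Egr3, Nr4a1 or, for Arhgef2, Fosb (0.954).

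A wider list held other immediate early genes. Of 41 tested, none passed an adjusted p of 0.05, and at an unadjusted p under 0.05 there was 1 higher and 1 lower in DUSP6 KO, where 2.62% and 3.03% of all genes tested were. The median log2 fold change was −0.06. The higher gene was Dusp1, a nuclear phosphatase that inactivates p38, JNK and ERK. In DUSP6 KO mice 26, 21, 73, 01 and 03 Dusp1 was at 16.9, 28.0, 17.4, 19.2 and 23.5 FPKM, and in WT mice 65, 67, 73, 77 and 83 it was at 10.8, 12.4, 13.2, 14.0 and 15.3 FPKM. As with Fos, the groups did not overlap, which held in this direction for 0.549% of all genes tested, and mouse 21 was the highest. The log2 fold change of Dusp1 was 0.66 ± 0.15 (SE), with an adjusted p of 0.343 by limma, and the two-sided exact permutation test gave p = 0.00794. The lower gene was Socs3, an inhibitor of cytokine receptor signals, at 11.3 ± 2.6 against 15.6 ± 3.3 FPKM (SD, n = 5 each) with overlapping groups, and its log2 fold change was −0.47 (adjusted p = 0.767 by limma).

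The other genes named from that list did not pass an unadjusted p of 0.05. Cyr61, a matricellular protein, had a log2 fold change of 0.94, close to that of Fos, but its values of 3.69 to 21.4 FPKM in DUSP6 KO spleens overlapped those of 3.27 to 7.001 FPKM in WT spleens (adjusted p = 0.924 by limma). Klf6 was at −0.27 (adjusted p = 0.934 by limma). The most abundant of the list, Mcl1 (an inhibitor of apoptosis), Klf2 (a regulator of lymphocyte traffic) and Nfkbia (the inhibitor of NF-κB), had log2 fold changes of −0.09, −0.22 and 0.02.

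Upstream regulators and partners of these genes showed no called difference. Of 11 SRF and ternary complex regulators, 3 were higher and 8 lower in DUSP6 KO by sign alone. The median difference on the log2 scale was −0.10. None had an unadjusted limma p under 0.05, against 5.66% of all genes tested. Srf itself was at 28.7 ± 5.8 and 29.8 ± 2.4 FPKM in DUSP6 KO and WT spleens (SD, n = 5 each). Elk1 was at 1.89 ± 0.79 and 2.31 ± 0.62 FPKM, and Creb1 at 7.32 ± 0.67 and 8.37 ± 0.90 FPKM. Log2 fold changes of the ERK-activated kinases Rps6ka1, Rps6ka3 and Rps6ka4 were 0.10, −0.17 and −0.10, and that of the SRF cofactor Mkl1 was −0.10. Of 11 EGR corepressors and AP-1 partners, none had an unadjusted p under 0.05 either, with a median of −0.06. In that list the EGR corepressor Nab1 was at −0.14, and the basic leucine zipper factors Atf7, Bach1, Jdp2 and Atf4 were at −0.15, 0.10, −0.19 and 0.02.

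Genes that are transcribed when ERK is active, among them feedback inhibitors of the pathway, were counted in the same way. Of 15 tested, 12 were higher by sign, 4 of them at an unadjusted p under 0.05 (2.62% of all genes tested) and none lower, with a median log2 fold change of 0.25. None passed an adjusted p of 0.05. Spry1, Spry4 and Spry2 are Sprouty inhibitors of receptor tyrosine kinase signals. Their log2 fold changes were 1.04, 0.74 and 0.55 (limma adjusted p = 0.243, 0.368 and 0.462), with no overlap between the groups in any of the 3, as for 0.549% of all genes tested in this direction. Spry1 averaged 4.81 ± 1.09 FPKM over the DUSP6 KO and 2.30 ± 0.59 FPKM over the WT spleens (SD, n = 5 each). Etv5, an ETS factor, was at 0.47 (limma adjusted p = 0.753) with overlapping groups. The most abundant of the list, Ccnd1, Dusp5 and Spred1, were at −0.27, 0.37 and 0.25 and did not pass an unadjusted p of 0.05. Since the study called Sprouty genes on these samples, the list is not independent evidence of its direction.

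Heat shock genes, which like immediate early genes respond quickly to stress and tissue handling, were looked at for comparison. Of 12 tested, 1 was lower and none higher at an unadjusted p under 0.05 (3.03% and 2.62% of all genes tested), with a median log2 fold change of −0.23. The gene was Hspb1, a small chaperone, at 12.2 ± 3.3 in DUSP6 KO and 24.9 ± 5.5 FPKM in WT spleens (SD, n = 5 each), with a difference of −1.05 on the log2 scale (adjusted p = 0.299 by limma) and no overlap between the groups, as for 1.11% of all genes tested in either direction. Hspa1b was at −0.91 (adjusted p = 0.941 by limma) and Hsph1 at −0.58 (adjusted p = 0.945 by limma) with overlapping groups. The abundant chaperones Hspa8, Hsp90aa1 and Hspa5 were at −0.27, −0.06 and −0.19.

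Markers of the other cell types of the spleen were compared between the groups at an unadjusted p under 0.05, which 3.03% of all genes tested passed as lower and 2.62% as higher in DUSP6 KO. By this, 6 of 8 neutrophil markers were lower in DUSP6 KO (median log2 fold change −1.13). Their summed levels were 553 to 1920 FPKM in DUSP6 KO and 1107 to 4757 FPKM in WT spleens. By flow cytometry of spleen cells, the study found no significant difference in myeloid cell numbers, and it reported none for neutrophils. Of 10 macrophage and monocyte markers 3 were higher and 2 lower, of 7 endothelial markers 2 were higher, of 4 megakaryocyte and platelet markers 2 were lower and of 5 plasma cell markers 1 was lower. None of the 7 erythroid and none of the 6 exocrine pancreas markers was called. No single marker passed an adjusted p of 0.05 by limma, although the study called Marco, of the macrophage list, higher by DESeq2. The part of neutrophils and macrophages in the levels of Ier3, Socs3 and the other genes was not tested.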

How the data were processed

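Poly(A) RNA of 10 spleens was sequenced as paired-end reads. The authors aligned reads with Hisat2 (v2.0.5), counted them per gene with featureCounts (1.5.0-p3) and deposited FPKM values with gene lengths, the only values used here. The labels name build hg38, but 98.1% of the 54532 genes had the coordinates of mouse GENCODE M21 (GRCm38), whose build is used here. Whether counting used strand is not given in the sources used here. From FPKM and gene length, whole reads were recovered (100% of values within 0.1 read of a whole number), and their sum is the depth of each library. The FPKM scale was 0.949 to 1.12 times the read total.

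Groups came from the sample titles. The groups were compared with limma 3.58.1 in R 4.3.3 (eBayes with trend) on log2(FPKM + 0.1), over the 21296 genes whose mean reached 0.1 FPKM. Adjustment by Benjamini-Hochberg was over all of them, with a threshold of 0.05. All 10 genes passed this filter. Fold changes are on the log2(FPKM + 0.1) scale, which understates those of low genes such as Fosb. A value after ± is an SD of n spleens unless named an SE. Exact permutation tests were two-sided, over all 252 splits. Correlations over 10 spleens were tested by 100000 random pairings (scipy 1.17.1, numpy 2.4.6), or by all 14400 orders within groups once group means were removed. With 9 or fewer spleens all pairings were enumerated. Adjustment was over 45 pairs.

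Besides the 10 genes, of each gene list the 4 genes with the smallest limma p and the 3 with the highest mean were named, together with the 8 other genes most like the 10. The 10 genes and all lists (5 gene lists and 10 marker lists) were chosen with earlier results of these data known. A marker planned for the lists is not reported here. Promoters were taken from RefSeq. The limma fit and the permutation test of correlations were tested on simulated data.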

Additional observations from a re-analysis of the deposited data

Results flagged for a closer look

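In each group of 5 spleens, the highest and lowest value was compared with the others for the 10 genes, Dusp6, Dusp1, the lists and the read total, over 56 groups of values, of which chance sets apart about 1 in 20. For none of the 10 genes did a spleen stand apart in this way. The mean log2 level of the exocrine pancreas markers in DUSP6 KO mouse 03 was −2.73, against −3.21 to −3.12 in the other DUSP6 KO spleens, which is near the level of no reads in all of them. The library of WT mouse 67 held 18422147 reads, against 15611652 to 16348136 in the other WT libraries. This is the WT spleen with the most pancreas reads and with the highest WT levels of Fos, Junb, Egr1, Egr2, Egr3, Ier2 and Nr4a1.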

How the results depend on the processing

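None of the 10 genes passed an adjusted p of 0.05 under any of 21 other fits, including limma voom on the recovered reads, and at least 1 gene had an unadjusted p under 0.05 in each (1 to 2 with single mice left out). Fos was that gene in all 21, with a log2 fold change of 0.74 to 0.996 under other settings and 0.72 to 1.14 with single mice left out, and a limma adjusted p of 0.372 to 0.970. The second gene was Ier3 without DUSP6 KO mouse 73 and Egr2 without DUSP6 KO mouse 03. The median log2 fold change of the 10 genes ran from 0.01 to 0.12 under other settings and from −0.08 to 0.09 with single mice left out. Egr1, Egr2, Ier2, Ier3, Nr4a1 and Fos kept their sign in all 21 fits. Junb was at 0.0045 under quantile normalization and 0.0051 under median centring. Without both WT mice with pancreas reads, a choice made after seeing the data as was rescaling to read totals, Fosb was at 0.0426, Junb at 0.10 and Egr3 at 0.15. With single mice left out, Junb ran from −0.11 to 0.10, Fosb from −0.28 to 0.0861, Egr3 from −0.32 to 0.0671 and Jun from −0.0456 to 0.12. The number of correlated pairs (13) was 9 to 14 under other settings, 3 to 13 with single mice left out, and 2 without DUSP6 KO mouse 73 and WT mouse 77, left out together after seeing the data. Fits without mice have fewer spleens, and the cause was not tested further. Fosb was below the filter at a minimum mean of 1 FPKM and has no value there. No paired analysis was possible because the groups share only 1 mouse number, 73. Depth limits Fosb (12 to 64 reads) and Ier3 (69 to 104 reads) most.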

Other observations

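Of 11438 protein-coding genes of at least 1 FPKM on average, those whose pattern over the 10 spleens was most like that of Fos were named after their values were seen. They were Bgn, an extracellular matrix proteoglycan (Pearson r = 0.933), Gdf6, a ligand of the TGF-β family (0.932), Tgfbr3, the coreceptor betaglycan (0.931), Aplnr, the apelin receptor (0.927), and Rab38, a small GTPase (0.926). Their log2 fold changes between DUSP6 KO and WT were 0.41, 1.11, 0.19, 0.59 and 0.36. None passed an adjusted p of 0.05 (limma adjusted p = 0.557 to 0.944). Since they were chosen by their likeness to Fos over the same spleens, fold changes above 0 are not separate evidence. For Egr1, chosen in the same way, the closest were Cyp4v3 (0.964), Sidt2 (0.961), Rhobtb2 (0.958), BC029722 (0.953) and Sept1 (0.946), with log2 fold changes of 0.05 to 0.14. The lists of 5 genes closest to Fos and to Egr1 had no gene in common. This adds nothing to the r of 0.386 between Fos and Egr1, which is too low for a gene to be that close to both.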
